A study of Mus musculus with 72 samples.

Results

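Normal-appearing mouse lungs in this series fell into 2 separate sets by the level of H2-Aa, which encodes the alpha chain of the MHC class II molecule I-A. All 39 normal lung libraries, of 72 libraries in all, were sorted by log2(CPM + 1) of H2-Aa and divided at the widest gap, where CPM is the count of a gene scaled to the same total in every library. This gave 20 high lungs and 19 low lungs. The classes come from the measured level of 1 gene and not from the labels, so H2-Aa in these lungs is described with no test, and all other genes were compared between the classes. Every animal, in both classes, was Gprc5a-/- (deleted for a G protein-coupled receptor of lung epithelium). Gprc5a had at most 4 counts in any library, of high and low animals alike. The lungs were taken at baseline with no exposure to the tobacco nitrosamine NNK (8 weeks old), at the end of NNK exposure (16 weeks), and 3 months (28 weeks) and 7 months (44 weeks) after it, 1 library per animal. High and low lungs numbered 2 and 8 at baseline, 3 and 7 at end of exposure, 9 and 0 at 3 months and 6 and 4 at 7 months. The labels name no strain and no litter. All 5 baseline lungs whose animal names begin with F were low, and all 3 of the 7-month lungs whose animal numbers begin with 17 were high.

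MHC class II molecules are pairs of an alpha and a beta chain that carry peptides from the endosome to the surface of dendritic cells, macrophages and B cells, where CD4+ T cells read them. In the mouse they are encoded in the H2 complex, beside the genes of peptide loading, the class I genes and the class III region. Ciita, the class II transactivator, drives the class II genes together through short elements of their promoters. H2 genes differ widely between mouse strains, and neighbouring genes are inherited together.

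Promoters are shown for H2-Aa, which set the classes, and for H2-Eb1 and H2-Ob, class II genes that were high in the same lungs. Letters of elements that bind the class II machinery are marked where they stand. They are RefSeq sequences of GRCm38.p6, from 250 bases before to 50 bases after the gene's start. Capitals mark the letters CCAAT, the core of the Y box, and TAGCAAC, a form of the X box core, on either strand; the motifs do not overlap.
H2-Aa, chr17:34287774-34288073, minus strand: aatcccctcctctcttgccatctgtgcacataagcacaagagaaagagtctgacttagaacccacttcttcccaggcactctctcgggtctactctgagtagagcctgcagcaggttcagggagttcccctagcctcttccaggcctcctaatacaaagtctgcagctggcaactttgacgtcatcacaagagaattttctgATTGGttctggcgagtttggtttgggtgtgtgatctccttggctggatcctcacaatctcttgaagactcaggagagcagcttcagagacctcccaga
H2-Eb1, chr17:34305617-34305916, plus strand: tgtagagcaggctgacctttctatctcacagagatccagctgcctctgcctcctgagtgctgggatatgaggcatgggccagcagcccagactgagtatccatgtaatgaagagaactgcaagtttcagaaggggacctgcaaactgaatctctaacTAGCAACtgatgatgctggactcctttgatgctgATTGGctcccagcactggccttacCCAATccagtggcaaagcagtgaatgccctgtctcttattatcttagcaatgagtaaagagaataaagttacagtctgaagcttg
H2-Ob, chr17:34238655-34238954, plus strand: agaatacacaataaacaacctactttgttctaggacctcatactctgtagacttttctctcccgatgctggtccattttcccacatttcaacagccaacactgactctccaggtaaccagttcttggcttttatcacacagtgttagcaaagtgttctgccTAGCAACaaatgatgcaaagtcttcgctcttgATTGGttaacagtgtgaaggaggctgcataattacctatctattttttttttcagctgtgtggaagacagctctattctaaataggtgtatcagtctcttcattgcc
CCAAT stood in all 3 sequences, and in 37.4% of the 32851 mouse promoters of that table. TAGCAAC stood in those of H2-Eb1 and H2-Ob, and in 3.66% of all promoters. A match describes these reference letters and not the sequence carried by the animals.

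H2-Aa lay at 455 to 1976 CPM in the high lungs (median 855, n = 20) and at 0.204 to 1.70 CPM in the low lungs (median 0.433, n = 19). The lowest high lung, at end of exposure, was 268 times the highest low lung, at 7 months. The gap between them was 7.40 on the log2(CPM + 1) scale, and the next widest gap between neighbouring lungs was 0.40. The lungs next to the gap lay at 561 CPM above it and 1.41 CPM below it. Every low lung had counts of H2-Aa, 184 in the 19 lungs together. By time group, H2-Aa had 656 and 1640 CPM in the high baseline lungs and a median of 0.377 CPM in the low ones. At end of exposure it had 455, 649 and 901 CPM in the high lungs and a median of 0.600 CPM in the low lungs. The high 3-month lungs had a median of 1274 CPM, and no low lung was present for comparison. At 7 months the median was 746 CPM in high lungs, against 0.390, 0.420, 1.17 and 1.70 CPM in the low lungs.

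**Figure D1:**
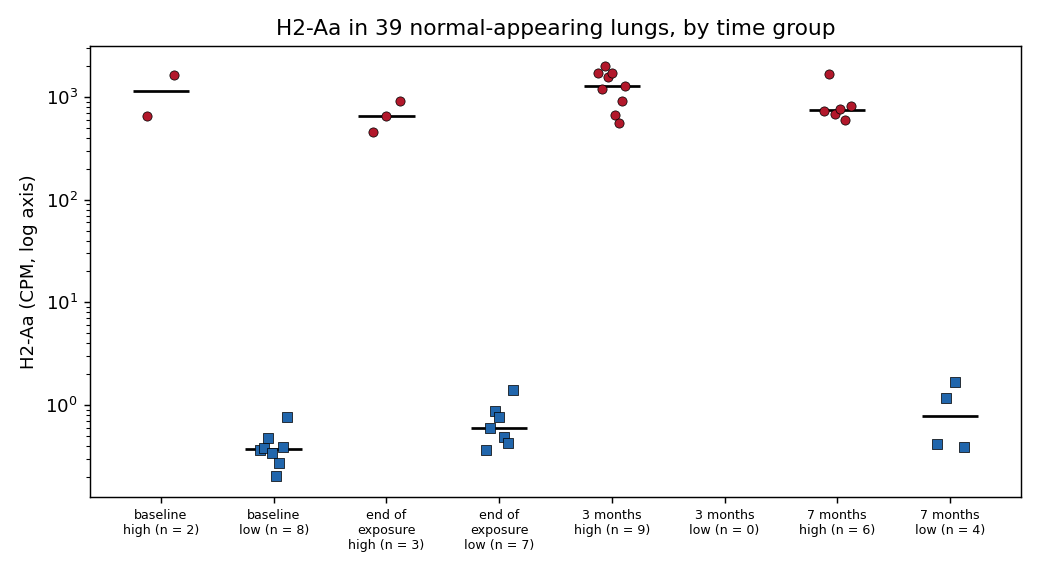
H2-Aa in each of the 39 normal-appearing lungs, in CPM on a log axis, by time group (points, single lungs; bars, medians; red circles, high lungs; blue squares, low lungs). High lungs sit at 455 CPM or above and low lungs at 1.70 CPM or below in every time group that holds both.

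Across all other genes, few were called between the classes in the fit of all 39 lungs, and all of those lay on the chromosome of H2-Aa. EdgeR's quasi-likelihood test with time group as covariate called 20 of 14906 genes at a Benjamini-Hochberg adjusted p under 0.05 (0.134% of genes tested), 19 higher in high lungs (0.127%) and 1 lower (0.00671%). The same set of 20 was called by DESeq2 among 32 and by limma-voom among 22. The high and low lungs did not overlap in CPM for 12 of 13863 genes with a mean of at least 1 CPM (0.0866%), all of them called. Of the 20, 8 are H2 genes by name. In bulk tissue, fewer cells of a type and less RNA per cell cannot be told apart. Nor can counts of 1 amplicon per gene tell a base difference under its primers from a difference in RNA; this was not tested. H2 genes also share sequence with near copies, and reads of one could be counted for another.

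Among the class II chains, H2-Eb1 was high in the same lungs as H2-Aa, while H2-Ab1, the beta chain that pairs with H2-Aa, stayed abundant in both classes. H2-Eb1, the beta chain of I-E, had 74.9 to 477 CPM in the high lungs (median 162), against 0 to 0.204 CPM in the low lungs (median 0). Its counts in the low lungs came to 12, with 12 of 19 lungs at 0, and no high lung overlapped with a low one. The log2 fold change was 12.09 ± 0.38 (SE; edgeR adjusted p = 1.08e-25). The 2 high baseline lungs had 161 and 477 CPM of it and the 3 high lungs at end of exposure 98.4, 135 and 162 CPM, and it ran over 105 to 462 CPM at 3 months (median 319) and 74.9 to 358 CPM at 7 months (median 129). H2-Ab1 had 192 to 1068 CPM in the high lungs (median 426), against 136 to 609 CPM in the low lungs (median 223). Those ranges overlapped in most lungs, and the difference, 0.66 ± 0.23, did not pass (edgeR adjusted p = 0.592; unadjusted p = 0.00713). H2-Eb2, a further beta chain, had medians of 2.45 CPM in high and 1.31 CPM in low lungs (0.32 ± 0.40, edgeR adjusted p = 0.899). H2-Ea-ps, the listed form of the alpha chain that pairs with H2-Eb1, had 1 count in the 39 lungs together, so high and low lungs alike were at or under a limit of 3 counts per library.

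Of the 14 tested genes of class II loading and regulation, 2 rose and 12 did not pass (median log2 fold change -0.06, against -0.01 over all genes tested). H2-Ob, the beta chain of H2-O, which restrains peptide exchange in B cells, had 4.67 to 76.2 CPM in high lungs (median 16.8), against 0 to 0.261 CPM in low lungs (median 0.0485). The classes did not overlap (8.08 ± 0.45, edgeR adjusted p = 4.23e-17). H2-DMb2, a beta chain of the peptide exchanger H2-M, had 6.71 to 82.5 CPM in high lungs (median 15.2), against 1.18 to 10.97 CPM in low lungs (median 2.76). It was higher by 2.46 ± 0.34 (edgeR adjusted p = 1.39e-05), although 2 low lungs reached the lowest high lung. The partners of these chains and the shared machinery did not pass. H2-DMa, the alpha chain of H2-M, had medians of 40.4 CPM in high and 30.4 CPM in low lungs (0.21 ± 0.21, edgeR adjusted p = 0.868), and the other beta chain, H2-DMb1, of 41.3 CPM in high and 36.7 CPM in low lungs (-0.19 ± 0.19, edgeR adjusted p = 0.869). H2-Oa, the partner of H2-Ob, had medians of 4.85 CPM in high and 3.43 CPM in low lungs (-0.21 ± 0.33, edgeR adjusted p = 0.922).

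Cd74, the invariant chain that escorts class II molecules, had 827 to 3015 CPM in high lungs (median 1642), against 666 to 3839 CPM in low lungs (median 1346). Its difference over all times was -0.19 ± 0.22 (edgeR adjusted p = 0.886). Ciita had 29.6 to 159 CPM in high lungs (median 78.6), against 29.2 to 170 CPM in low lungs (median 66.8; 0.06 ± 0.21, edgeR adjusted p = 0.973). The ranges of both genes overlapped almost wholly. The RFX subunits that bind the X box differed by 0.12 or less on the log2 scale, as did Ciita: Rfxap 0.12 ± 0.21 (edgeR adjusted p = 0.936), Rfx5 -0.07 ± 0.18 (0.963) and Rfxank -0.10 ± 0.13 (0.905). Of the endosomal enzymes, Ctss, the cathepsin that cuts the invariant chain, differed by -0.06 ± 0.30 (edgeR adjusted p = 0.981). Ctsl, a related cathepsin, differed by -0.28 ± 0.12 (edgeR adjusted p = 0.640), Ifi30, a thiol reductase, by -0.32 ± 0.14 (0.673) and Lgmn, a legumain protease, by 0.64 ± 0.41 (0.770).

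**Figure D2:**
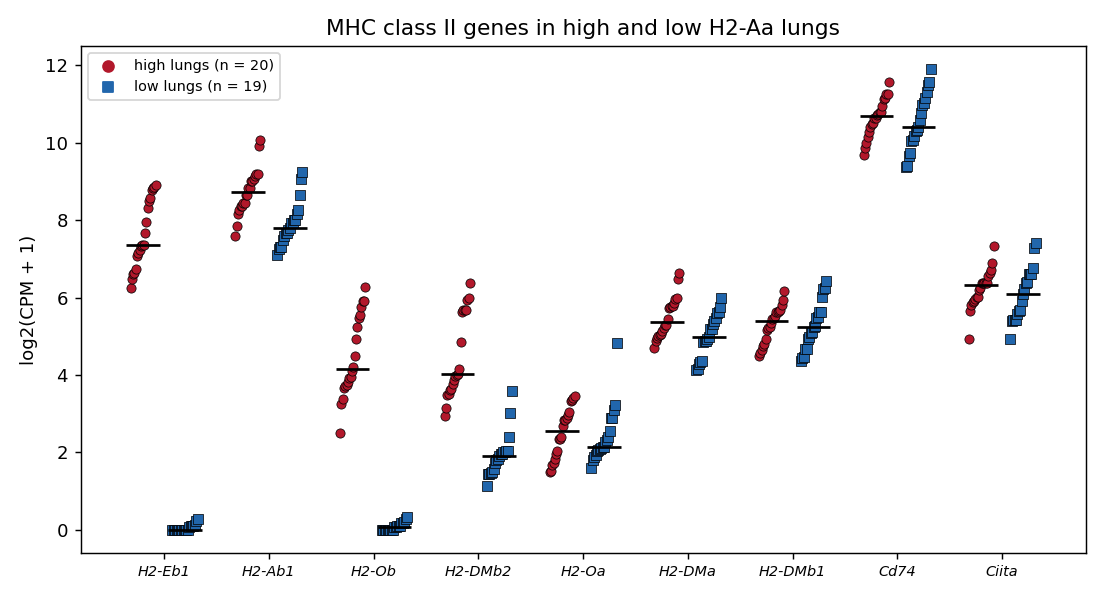
Levels of 9 MHC class II genes as log2(CPM + 1) in the 20 high lungs (red circles, left of each pair) and the 19 low lungs (blue squares, right), in order of level within each column; bars mark medians. H2-Eb1 and H2-Ob separate completely and H2-DMb2 overlaps in few lungs, while H2-Ab1, H2-Oa, H2-DMa, H2-DMb1, Cd74 and Ciita overlap broadly.

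Classical class I genes, which show peptides from the cytosol to CD8+ T cells, did not pass in either direction (0 of 3 tested, 1 with an unadjusted p under 0.05, and 0 by DESeq2). H2-K1 had 569 to 1690 CPM in high lungs (median 1069), against 362 to 1891 CPM in low lungs (median 505). Adjusted for time, this was a difference of 0.16 ± 0.20 (edgeR adjusted p = 0.898). H2-D1 had medians of 1244 CPM in high and 1434 CPM in low lungs (-0.46 ± 0.22, edgeR adjusted p = 0.691), and B2m, the light chain of class I, of 776 CPM in high and 746 CPM in low lungs (-0.31 ± 0.28, edgeR adjusted p = 0.856).

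Of 14 other class I H2 genes, 3 rose and 1 fell in high lungs. H2-T22, a nonclassical class I molecule that some gamma delta T cells recognise, had 4.21 to 179 CPM in high lungs (median 23.4), against 0.0916 to 0.631 CPM in low lungs (median 0.205; 6.59 ± 0.54, edgeR adjusted p = 1.28e-11). H2-K2 had 5.70 to 19.9 CPM in high lungs (median 8.99), against 0 to 0.814 CPM in low lungs (median 0.252; 4.94 ± 0.26, edgeR adjusted p = 1.31e-17). H2-Bl had 1.80 to 19.2 CPM in high lungs (median 4.84), against 0 to 1.48 CPM in low lungs (median 0.263; 3.87 ± 0.41, edgeR adjusted p = 1.28e-08). Neither these nor H2-T-ps, listed as a pseudogene and higher by 4.97 ± 0.38 (edgeR adjusted p = 1.64e-12), had any overlap between the classes. H2-Q1 went the other way, at 1.09 to 10.0 CPM in high lungs (median 3.32), against 2.92 to 21.1 CPM in low lungs (median 13.5). It fell by 1.29 (edgeR adjusted p = 0.0121), with 15 of 20 high lungs within the low range. This call was lost without baseline replicate 9 (log2 fold change -1.15, adjusted p = 0.0700), without the 5 lungs over 300 CPM of the heart muscle gene Myh6 (-1.06, 0.161), without the 3 lungs of animal numbers beginning with 17 (-1.24, 0.0684) and without the lung on either side of the gap (-1.32, 0.0612). Gm8909, named only as a predicted gene, had 610 counts in high lungs and 3 counts in low lungs, a ratio of 197 in CPM (exact 95% interval 67.2 to 960, for counting error only).

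In the class III region and nearby, the called genes were of many functions. Of the 56 tested genes listed for that region, 4 rose, 0 fell (15 were under an unadjusted p of 0.05, and 5 passed by DESeq2), and the median was -0.07. The 4 were Lst1, Nfkbil1, Atp6v1g2 and Ring1, while D17H6S56E-5, Ppp1r18 and Sapcd1, described with them here, are not in that list. D17H6S56E-5, for which no role is given here, had 31.7 to 147 CPM in high lungs (median 59.1), against 0 to 0.158 CPM in low lungs (median 0; 10.52 ± 0.33, edgeR adjusted p = 9.78e-26). Ppp1r18, the gene of phostensin, an actin-binding protein, had 22.4 to 153 CPM in high lungs (median 50.6), against 0.306 to 1.23 CPM in low lungs (median 0.794; 5.64 ± 0.25, edgeR adjusted p = 3.16e-20). Both genes were separated with no overlap. Lst1, a leukocyte-specific transcript, had 2.56 to 16.9 CPM in high lungs (median 6.27), against 0 to 0.611 CPM in low lungs (median 0.122; 5.17 ± 0.40, edgeR adjusted p = 1.58e-12). Nfkbil1, an inhibitor-like protein of NF-kB, had 1.44 to 7.31 CPM in high lungs (median 3.42), against 0 to 0.407 CPM in low lungs (median 0.0653; 4.47 ± 0.37, edgeR adjusted p = 8.29e-12). Sapcd1 had 0.790 to 8.51 CPM in high lungs (median 2.19), against 0 to 0.147 CPM in low lungs (median 0; 6.02 ± 0.42, edgeR adjusted p = 8.80e-14). None of these overlapped between the classes.

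Other called genes differed by degree rather than by presence. Rpp21, a subunit of ribonuclease P, had 16.5 to 61.5 CPM in high lungs (median 28.2), against 4.99 to 13.1 CPM in low lungs (median 8.20; 1.55 ± 0.16, edgeR adjusted p = 3.17e-09). Low lungs thus held Rpp21 counts throughout, yet the ranges did not touch. Pfdn6, a subunit of the chaperone prefoldin, had medians of 14.3 CPM in high and 5.34 CPM in low lungs (1.75 ± 0.32, edgeR adjusted p = 0.00281). Ring1, a ubiquitin ligase of the Polycomb complex, had medians of 61.0 CPM in high and 45.7 CPM in low lungs (0.59 ± 0.11, edgeR adjusted p = 0.00608). Atp6v1g2, a subunit of the vacuolar proton pump, had medians of 4.26 CPM in high and 2.12 CPM in low lungs (1.03 ± 0.21, edgeR adjusted p = 0.0117). These 3 overlapped between the classes. Ring1 (adjusted p = 0.0616) and Atp6v1g2 (0.105) no longer passed when the 5 lungs rich in Myh6 were left out, with folds of 0.59 and 0.99. Atp6v1g2 also did not pass without end-of-exposure replicate 3 (0.92, adjusted p = 0.0910). Without the lung on either side of the gap their folds were 0.49 and 0.86 (adjusted p = 0.129 and 0.257).

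Cryaa and Rpl7l1 were near-absent in most low lungs, with exceptions. Cryaa, the gene of the lens protein alpha A crystallin, had 0.461 to 5.80 CPM in high lungs (median 2.18), against 0 to 1.26 CPM in low lungs (median 0; 3.50 ± 0.53, edgeR adjusted p = 5.90e-05). Of the low lungs, 13 had no count of it. The low lungs that reached the high range were 7-month replicate 1 (1.26 CPM) and baseline replicate 6 (0.752 CPM). Rpl7l1, a ribosomal protein-like gene, had 9.74 to 71.4 CPM in high lungs (median 30.5), against 0.0458 to 40.0 CPM in low lungs (median 0.222; 4.11 ± 0.88, edgeR adjusted p = 0.0310). In that gene baseline replicate 2, at 40.0 CPM, and end-of-exposure replicate 10, at 14.1 CPM, were low in H2-Aa but lay among the high lungs, and the other 17 low lungs lay at 0.969 CPM or below. The call was lost on leaving out any 1 of 7 lungs: 7-month replicate 1 (adjusted p = 0.0586), 8 (0.0711), 9 (0.0749) or 10 (0.0612), end-of-exposure replicate 2 (0.0527) or 3 (0.0506), or baseline replicate 9 (0.0844). The log2 fold change stayed at 3.83 to 4.31 over those 7 fits. It was also lost with no filter on low counts (0.0678), without the 3-month lungs (0.178), without the 3 lungs of animal numbers beginning with 17 (0.0684) and without the lung on either side of the gap (0.129).

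**Figure D3:**
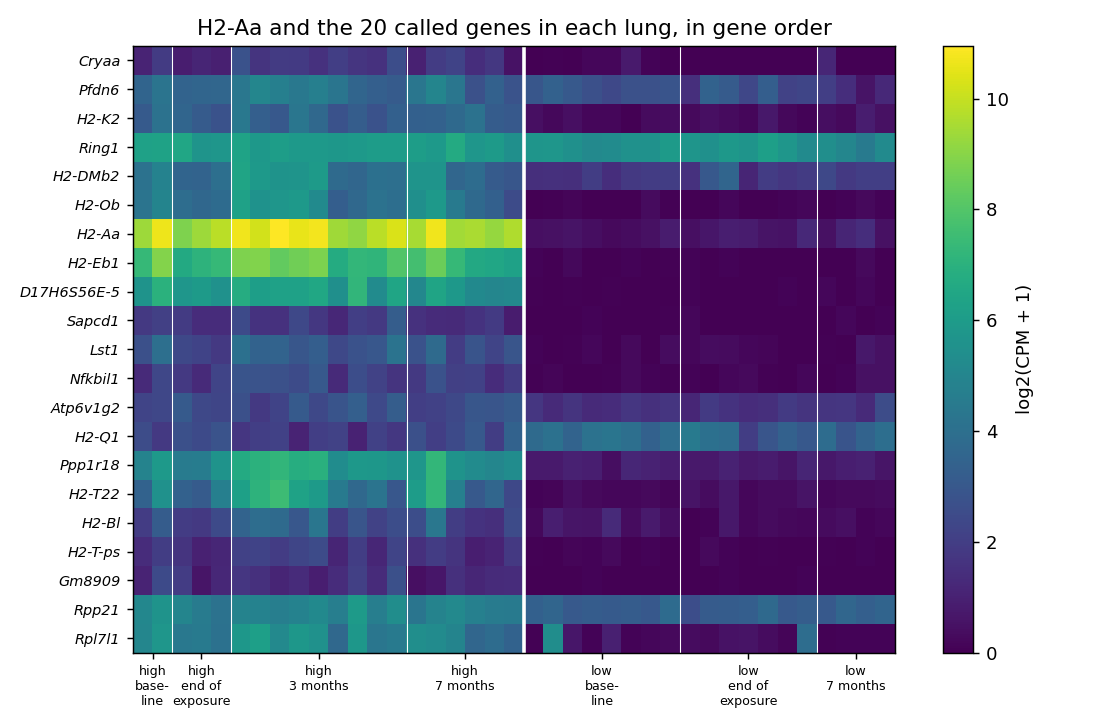
H2-Aa and the 20 called genes (from top to bottom in RefSeq gene order) in each lung, as log2(CPM + 1) by colour; columns are single lungs, high lungs left of the thick white line and low lungs right of it, grouped by time. The change of colour at the thick line is shared by most genes, with H2-Q1 in the other direction and single low lungs out of step for Cryaa and Rpl7l1.

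All 20 called genes lay on chromosome 17, 19 of them within 200 genes of H2-Aa. Gene order was taken from RefSeq GRCm38.p6, in which 14669 of the 14906 genes tested were found. Within 25 genes to either side of H2-Aa, 4 of 29 tested genes were called (13.8%): H2-Eb1, H2-Ob, H2-DMb2 and Ring1. From 26 to 50 genes away 2 of 25 were called (8.00%), from 51 to 100 away 6 of 48 (12.5%) and from 101 to 200 away 7 of 82 (8.54%). Over the rest of the chromosome it was 1 of 511, Rpl7l1 (0.196%), which is 445 genes away. On other chromosomes 0 of 13974 genes passed by edgeR and 6 by DESeq2, and at an unadjusted p under 0.05 there were 939 by edgeR (6.72%). Metrnl, the gene of a secreted hormone-like protein, had the smallest p of these and was looked up for that reason. It had medians of 34.5 CPM in high and 44.0 CPM in low lungs (-0.67 ± 0.15, edgeR adjusted p = 0.0533). It passed with DESeq2 (adjusted p = 0.0130), with scaling to total counts alone (0.0487), with the letter F or M of the animal name as a covariate (0.0375) and on leaving out any 1 of 5 lungs (0.0121 to 0.0494). In smaller sets of lungs edgeR also called genes on other chromosomes: 12 of 24 calls with 7 months alone, 8 of 26 with baseline alone, 3 of 24 without baseline replicate 7 and at most 1 in each other set.

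Called and uncalled genes stood side by side in that stretch. H2-Ab1 and H2-Eb1 are the direct neighbours of H2-Aa on its 2 sides, and only H2-Eb1 was called. H2-Oa, H2-DMa and H2-DMb1, 12, 10 and 8 genes away, did not pass, while H2-DMb2, 9 genes away on the same side, did. H2-D1 and H2-Q1 lay 96 and 99 genes away. Of the tested genes from 101 to 200 places away, 26 of 82 had an unadjusted p under 0.05 (31.7%), against 41 of 511 on the rest of the chromosome (8.02%).

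**Figure D4:**
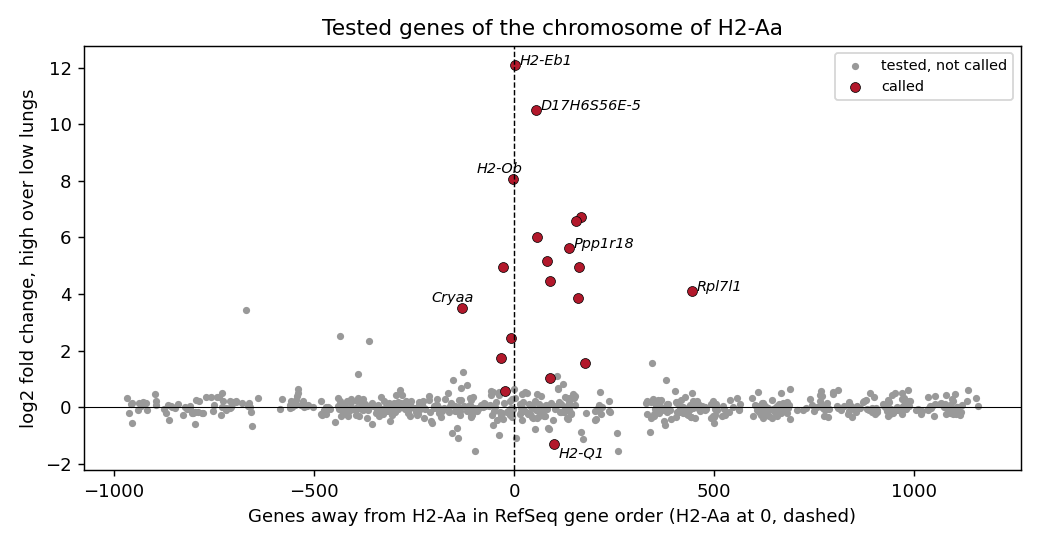
Log2 fold change of high over low lungs for every tested gene of chromosome 17, against its number of genes from H2-Aa in RefSeq order (red, called at an adjusted p under 0.05; grey, not called). All but 1 of the called genes lie within 200 genes of H2-Aa, and most genes between them stay near 0. Gm8909, with 3 counts in the low lungs, is drawn at its fitted value.

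Genes of immune cells and of interferon signalling did not pass in either direction over all 39 lungs. In 11 lists of such genes, 0 of 160 tested genes passed by edgeR or by DESeq2, and 12 were at an unadjusted p under 0.05 by edgeR (7.5%, against 7.02% of all genes tested). In other sets of lungs edgeR called 2 of them. Stat2, a signal carrier of type I interferon, was higher by 1.36 with baseline lungs alone (adjusted p = 0.0417), and Ms4a2, a chain of the IgE receptor of mast cells, fell by 1.56 without the 5 lungs over 300 CPM of Myh6 (0.0198). List medians ran from -0.46 for mast cell and basophil genes to 0.19 for the interferon gamma axis. The summed level of 16 dendritic cell genes was 587 to 1321 CPM in high lungs (median 966), against 715 to 1466 CPM in low lungs (median 839). The 17 B and plasma cell genes summed to 849 to 2150 CPM in high lungs (median 1301), against 800 to 2131 CPM in low lungs (median 1167). These ranges nearly coincided, as did those of T and NK cell genes, at 139 to 553 CPM in high lungs (median 238), against 109 to 639 CPM in low lungs (median 220). Macrophage and monocyte genes summed to 187 to 1216 CPM in high lungs (median 288), against 129 to 622 CPM in low lungs (median 270). These sums are not adjusted for time, and class and time group were not balanced. With time group in the fit, the median log2 fold change was below 0 in all of these lists. It was -0.06 for dendritic cell, -0.20 for B and plasma cell, -0.21 for T and NK cell and -0.12 for macrophage and monocyte genes.

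Lists of lung structure and of stress responses likewise had no called member. Alveolar type 2 genes such as Sftpb summed to 21025 to 65851 CPM in high lungs (median 35091), against 21085 to 89691 CPM in low lungs (median 32056), so the labelled tissue was present at high levels in both classes. Heart muscle genes summed to 167 to 3585 CPM in high lungs (median 839), against 220 to 6592 CPM in low lungs (median 586), and adipocyte genes to 35.8 to 1004 CPM in high lungs (median 155), against 28.5 to 1893 CPM in low lungs (median 281). Adjusted for time, the median log2 fold change was 0.52 for heart muscle genes (7 of 8 above 0) and -0.92 for adipocyte genes (0 of 8 above 0). These were the highest and the lowest medians of the 25 lists with no called member. Outside the immune cell and interferon lists, 14 lists had no called member, among them those of classical class I and class I loading genes. In these 14 lists, 8 of 162 tested genes were at an unadjusted p under 0.05 by edgeR (4.94%), and 0 passed by DESeq2.

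Whether the class difference varied with time was tested by the interaction of class and time group, over the 3 time groups with both classes. EdgeR called 149 of 14906 genes (1%) and DESeq2 771, and edgeR's count depended on the 2 high baseline lungs. Of the 149, 8 lay on chromosome 17, which held 695 of the genes tested. In 67 of the 149 both high baseline lungs lay above every low baseline lung, and in 48 both lay below. Without baseline replicate 9 edgeR called 0 (1683 with an unadjusted p under 0.05, and 60 by DESeq2), and without baseline replicate 7 it called 5. Between end of exposure and 7 months alone it called 0 (832 with an unadjusted p under 0.05, and 0 by DESeq2). Without another of the high lungs the count was 65 to 323. The lowest was without 7-month replicate 3, and the counts were 93 without end-of-exposure replicate 5, 236 without 7-month replicate 4 and 323 without 7-month replicate 5.

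Ciita and Cd74 were among those 149 genes. Ciita had 82.0 and 159 CPM in the high baseline lungs, against 29.2 to 50.5 CPM in the 8 low ones (median 41.8), with no overlap. Both high baseline lungs came from animals whose names begin with M, and the low ones from 5 with F and 3 with M. The interaction fit held no term for this letter, and its part in the difference was not tested. At end of exposure it had 58.7, 63.9 and 81.7 CPM in high lungs, against 59.0 to 170 CPM in low lungs (median 96.2). At 7 months it had 49.0 to 104 CPM in high lungs (median 77.4), against 73.5 to 155 CPM in low lungs (median 89.7). The edgeR adjusted p of the interaction was 0.0195 for Ciita and 0.0319 for Cd74. Cd74 had 1981 and 2473 CPM in the high baseline lungs, against 666 to 1290 CPM in the low ones, and medians of 1476 CPM in high and 2792 CPM in low lungs at 7 months. For H2-Eb1 and H2-Ob, in contrast, the interaction did not pass (edgeR adjusted p = 0.887 and 0.954), and their high and low lungs were apart at each time.

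Tumors of 16 of the same animals, which played no part in forming the classes, stayed on the same side of the gap as their lung. The 10 high animals had 15 tumor libraries and the 6 low animals 18, and tumor counts were summed per animal. High and low animals with tumors numbered 1 and 2 at end of exposure, 4 and 0 at 3 months and 5 and 4 at 7 months. H2-Aa had 1479 to 5487 CPM in the tumors of high animals, against 0.528 to 1.39 CPM in those of low animals. In single tumor libraries it lay at 1162 to 5662 CPM (median 2224.2) in high animals, against 0.135 to 2.22 CPM (median 1.19) in low animals, so no tumor changed sides. At end of exposure and 7 months, where both classes had tumors, the mean log2(CPM + 1) was higher by 10.01 in 6 high than in 6 low animals (exact permutation test within time group, 2-sided, p = 0.00265, the smallest that the 378 relabellings can give). Both tissues come from the same animals and are not independent samples of them.

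**Figure D5:**
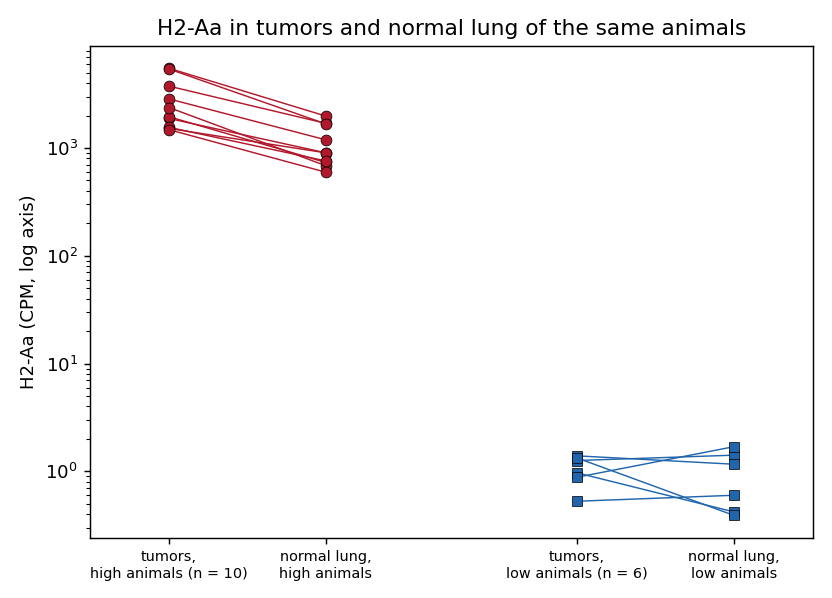
H2-Aa in CPM on a log axis in the summed tumors and the normal lung of the same animal, joined by a line (red circles, 10 high animals; blue squares, 6 low animals). Summed per animal, tumors of high animals lie at 1479 CPM or above and those of low animals at 1.39 CPM or below.

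Across all genes in tumors, edgeR called 14 of 15264 (0.0917%), all of them higher in high animals and on chromosome 17, and DESeq2 called 63, of which 57 were higher and 6 lower. Besides H2-Aa (11.12 ± 0.57, edgeR adjusted p = 1.37e-08) there were 13, and 12 of these had been called in lung, 92.3% of the tumor calls and 60.0% of the 20 lung calls. H2-Eb1 had 269 to 1268 CPM in tumors of high animals, against 0 to 0.0539 CPM in those of low animals (13.82 ± 0.64, edgeR adjusted p = 5.62e-09). H2-Ob had 5.74 to 128 CPM in high animals, against 0 to 0.0664 CPM in low animals (10.96 ± 0.98, edgeR adjusted p = 2.71e-05). The remaining shared calls were D17H6S56E-5, Lst1, Ppp1r18, Sapcd1, H2-K2, Nfkbil1, H2-T-ps, Rpp21, H2-Bl and Gm8909. Btnl6, a butyrophilin-like gene, was called in tumors and was too low to be tested in lung, where it had 79 counts in high and 0 counts in low lungs. In tumors it had 0.132 to 2.89 CPM in high animals, and all 6 low animals were at 0.

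Of the genes called in lung, 7 were tested in tumors and did not pass, and Cryaa was not tested there. H2-DMb2 had 14.2 to 348 CPM in tumors of high animals, against 7.30 to 12.6 CPM in low animals (2.36 ± 0.64, edgeR adjusted p = 0.680). H2-T22 had 1.03 to 195 CPM in high animals, against 0.190 to 0.761 CPM in low animals (5.19 ± 1.03, edgeR adjusted p = 0.123). Neither gene overlapped between the classes. H2-Q1, which was lower in high lungs, had 1.09 to 4.99 CPM in tumors of high animals, against 0.578 to 10.0 CPM in low animals (0.95 ± 0.55, edgeR adjusted p = 0.958). The others, Pfdn6, Ring1, Atp6v1g2 and Rpl7l1, differed by 0.74, 0.03, 0.67 and 5.13 on the log2 scale, with edgeR adjusted p of 0.173 for Rpl7l1 and 0.958 or more for the rest. H2-Ab1 had 519 to 2092 CPM in tumors of high animals, against 257 to 686 CPM in low animals (1.07 ± 0.36, edgeR adjusted p = 0.897). Its ranges overlapped, as in lung. Whether the class difference was another in tumors than in lung was not tested.

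Because all 3-month lungs were high and most baseline lungs low, class and time group were not balanced. EdgeR called 44 genes between 3 months and baseline with class as a covariate, against 257 without it. No 3-month lung was low, so with the class term this contrast takes the class difference from the other time groups. The drop in calls cannot tell smaller folds from larger errors, and its cause was not tested. H2-Q1, for example, differed by -1.09 (edgeR adjusted p = 0.191) with the class term and by -2.26 (0.000390) without it. H2-K1 differed by 0.93 (edgeR adjusted p = 0.145) with it and 1.04 (0.0114) without, and H2-Ab1 by 0.56 (0.529) with it and 1.03 (0.0471) without. The p53 target Cdkn1a passed both ways, at 1.33 (edgeR adjusted p = 0.000242) and 1.38 (3.53e-07). Between end of exposure and baseline 604 genes were called with the class term and 612 without, and between 7 months and baseline 2217 and 1912.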

How the data were processed

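The deposited table holds read counts per gene, whole numbers not normalized, for Ion AmpliSeq amplicon libraries from 10 ng of total RNA read on an Ion Proton, per the labels' protocols. The file names 1 amplicon for each of 23930 genes. It has 74 columns, of which 2 matched no sample and were not used. Which aligner and genome build were used is not given in the sources used here. Normal lung libraries held 7459147 to 19621546 counts (high) and 12807899 to 21822522 counts (low). Of 741 pairs of lungs none agreed within sampling noise (the smallest mean chi-square per gene was 32.7). The labels do not say how animals were related, so p-values measure the spread between these animals.

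The test was that of edgeR 4.0.16, run in R 4.3.3, on the counts (filterByExpr by time group, TMM, robust quasi-likelihood fit, time group plus class). H2-Aa stayed in the fit and out of the tests, and standard errors are the fold change over the square root of F. CPM divides by total counts. DESeq2 1.42.0 and limma-voom (limma 3.58.1) were alternatives. Counts simulated on the 39 lungs gave back 64% of 100 genes changed 2-fold and 97% of 100 changed 4-fold, with 7 false calls among 14907 genes.

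The classes, gene lists and alternatives were chosen with earlier results of these data known. Genes named were all tested members of the class II chain, class II loading and classical class I lists, up to 12 called genes of smallest p in each direction, up to 3 called members of each other list, called genes within 25 neighbours of H2-Aa, and genes without overlap between the classes. Other called genes, Metrnl, Btnl6, H2-Ea-ps, Stat2, Ms4a2 and Cdkn1a were named after their values were seen.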

Additional observations from a re-analysis of the deposited data

Results flagged for a closer look

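Single lungs stood far from the other lungs of their class and time in 17 of 188 groups of 4 to 9 lungs looked at on the log2(CPM + 1) scale, and chance gives about 1 in 20. The groups reuse the same lungs across genes and are not independent, so 17 of 188 cannot be read as an excess over that rate. Among the 6 high lungs at 7 months, replicate 3 had 1672 CPM of H2-Aa (others 596 to 810), 966 CPM of H2-Ab1 (287 to 400) and 153 CPM of Ppp1r18 (31.3 to 52.1), and replicate 4 had 38.9 CPM of Rfxap (9.44 to 16.1). Among the 4 low lungs at 7 months, replicate 9 had 0.204 CPM of H2-Eb1 (others at 0) and 5.02 CPM of Rfxap (14.9 to 17.03), and replicate 1 had 1.26 CPM of Cryaa (others at 0). Among the 7 low lungs at end of exposure, H2-Eb2 had 12.6 CPM in replicate 4 (0.734 to 2.83), Rfxap 28.9 CPM in replicate 7 (10.8 to 16.3), Sapcd1 0.147 CPM in replicate 1 (others at 0), H2-T-ps 0.225 CPM in replicate 2 (0 to 0.0631) and Rpl7l1 14.1 CPM in replicate 10 (0.124 to 0.486). Among the 8 low baseline lungs, Ciita had 29.2 CPM in replicate 5 (41.2 to 50.5), H2-T22 0.361 CPM in replicate 3 (0.0916 to 0.205), Gm8909 0.0685 CPM in replicate 4 (others at 0), Cryaa 0.752 CPM in replicate 6 (0 to 0.153) and Rpl7l1 40.0 CPM in replicate 2 (0.0458 to 0.969). Values under 1 CPM are a few counts each. Those of Gm8909, Sapcd1, H2-Eb1 and H2-T-ps lay under 0.234 CPM, which is 3 counts in the low lung of lowest depth. Differences between low lungs below that limit were not detectable.

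The class difference varied with time for Ciita (edgeR adjusted p of the interaction 0.0195) and Cd74 (0.0319). Both had higher levels in high than in low lungs at baseline, and lower medians in high than in low lungs at end of exposure and 7 months. The high baseline lungs all came from animals whose names begin with M, and the fit held no term for the letter. Without baseline replicate 9 no gene passed the interaction by edgeR (1683 were under an unadjusted p of 0.05, and 60 passed by DESeq2), and without baseline replicate 7 it was 5.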

How the results depend on the processing

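High and low lungs could not be paired, because each normal lung came from its own animal and the replicate numbers only name samples. Tumors and lung of the same animal could be paired, but no test compared them. The count of 20 genes called in lung became 32 with DESeq2 and 12 with end of exposure alone (fewer lungs), and lay at 16 to 26 under every other setting. On leaving out 1 lung of a time group with both classes it lay at 18 to 24. Single 3-month lungs were not left out. Total counts alone moved the median of all genes to 0.08 and called 25. Of 900 refits of the 20 called genes, 859 kept the call and 41 lost it (21 of them with 1 time group alone), and 0 reversed. Of 765 refits of 17 named genes that were not called, 1 gained a call (Ciita with baseline alone, 1.41, adjusted p = 0.0114), and 39 changed sign. In tumors 14 genes became 63 with DESeq2 and 12 to 15 on leaving out 1 animal. The 149 interaction calls became 771 with DESeq2, 0 with end of exposure and 7 months only, and 0 to 323 on leaving out 1 high lung, both added after the data were seen. Calls between 3 months and baseline were 257 without the class term; the cause of these shifts was not tested. The tumor difference in H2-Aa was 10.01 with tumors averaged per animal and 10.88 with a pseudocount of 0.1. The limit of 3 counts was 0.234 CPM in the low lung of lowest depth and 0.402 CPM in the high one, so differences between low lungs below the first were not detectable.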

Other observations

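Within the high lungs H2-Aa had a smaller gap of 0.40 on the log2(CPM + 1) scale, between 8 lungs at 1190 to 1976 CPM and 12 at 455 to 902 CPM. The 8 were 6 lungs of 3 months, 1 of 7 months and 1 of baseline. This division was seen in the values and no test was made of it. With it, 5 of 13863 genes with a mean of at least 1 CPM did not overlap between the 8 and the 12 lungs (0.0361%), 3 of them on chromosome 17. H2-Eb1 had 249 to 477 CPM in the 8 lungs, against 74.9 to 204 CPM in the 12. Slc37a1, a sugar phosphate transporter 140 genes from H2-Aa, had 53.5 to 93.1 CPM in the 8 lungs and 161 to 271 CPM in the 12, against 206 to 698 CPM in the low lungs. Dnah8, a dynein heavy chain 155 genes away, had 4.93 to 14.02 CPM in the 8 and 21.7 to 47.4 CPM in the 12, against 23.6 to 73.0 CPM in the low lungs. The other 2 were Pet100 and Psma6, whose ranges nearly met.

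Other genes also had separate levels by animal. With a widest gap of at least 3 on the log2(CPM + 1) scale and at least 5 lungs on each side, 17 genes other than H2-Aa were found. D17H6S56E-5, H2-Eb1 and Ppp1r18 placed all 39 lungs as H2-Aa did. On chromosome 17, Riok2 was the only other, 671 genes away, and placed 31 of 39 lungs alike. The 13 on other chromosomes placed at most 29 of 39 alike, among them Nfia, Lta4h and Cox7a2. They include sex-linked genes: Xist of the X chromosome, above its gap in 20 lungs, and Ddx3y, Eif2s3y and Uty of the Y chromosome, each above it in 19.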
